A study of Mus musculus with 2 samples.

Results

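In HL-1 cells, a contracting mouse line derived from atrial cardiomyocytes, 613 Srf binding peaks lay just beside a peak of acetylated histone H3 (H3ac) without sharing a base with it. They were selected on position in the deposited peak lists, so the gap to H3ac chose them. A peak entered when it started at position 3100000 or later, overlapped no H3ac peak, and had an H3ac peak within 500 bp, edge to edge, on its chromosome. The Srf list held 2190 peaks, of which 2032 started at 3100000 or later and were considered, and the H3ac list held 10486. The 613 peaks, called adjacent Srf peaks from here on, were thus 30.2% of those considered. Of the other Srf peaks considered, 547 overlapped H3ac, 285 lay over 0.5 and up to 10 kb from it, and 587 lay farther away. The start limit left out 9 peaks near chromosome starts that met the other conditions.

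The study mapped Srf and H3ac by chromatin immunoprecipitation and sequencing, with 1 library per antibody, from HL-1 cells harvested at their greatest density and given no treatment that the labels name. HL-1 is 1 established line, and peak lists hold no expression values, so its cardiac markers were not checked. Without replicates, every value stands for 1 library, and no condition was compared with another. The lists give positions in mm9 without score or read count, so the depth behind a peak is unknown. Intervals are exact 95% Clopper-Pearson intervals of a share, or binomial-rank intervals of a median. They cover counting error only and treat neighbouring peaks as independent.

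Srf (serum response factor) is a MADS-box transcription factor that binds the CArG box as a dimer. It controls sarcomere and cytoskeleton genes with cofactors of the myocardin family, and immediate early genes with ternary complex factors. Acetyl groups on the tail of histone H3 are placed by enzymes such as p300 and mark nucleosomes of active promoters and enhancers. DNA held by a transcription factor is often low in nucleosomes, with modified nucleosomes at its sides, so the position of an acetylated region relative to a bound site describes the local chromatin. No gene, promoter or DNA sequence is assigned to a peak, because the gene and promoter tables at hand follow another assembly than mm9.

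The adjacent Srf peaks were concentrated close to the H3ac edge. Their gap had a median of 116 bp, with quartiles of 57 and 226 bp and a range from 1 to 496 bp. Of the Srf peaks without overlap, 270 had a gap of up to 100 bp, 165 had one over 100 and up to 200 bp, and 91 had one over 200 and up to 300 bp. Between 400 and 500 bp there were 36, and from 500 to 600 bp 26, so the limit of 500 bp fell in a thin and gradual tail. These gaps chose the peaks and are a description.

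**Figure D1:**
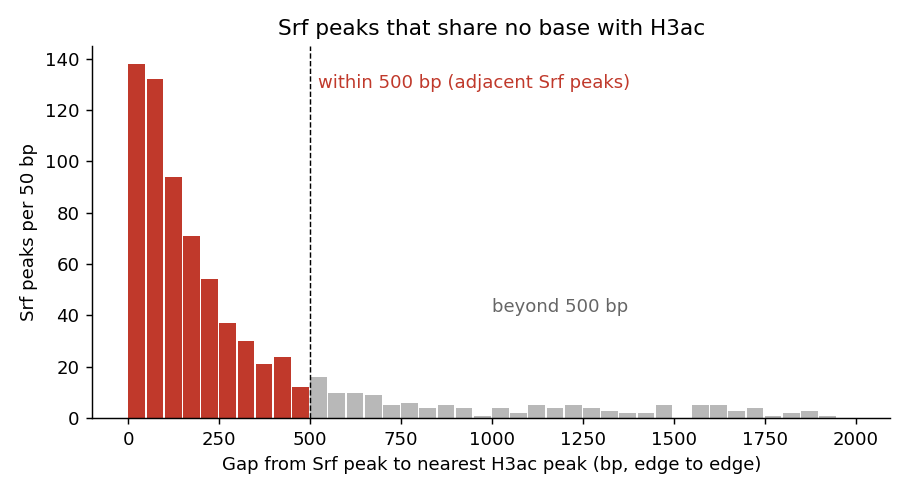
Number of Srf peaks without H3ac overlap (vertical axis, per 50 bp) by gap to the nearest H3ac peak (horizontal axis, bp), with the 613 adjacent Srf peaks in red and peaks beyond the dashed limit of 500 bp in grey. The first 50 bp hold 138 peaks and the last 50 bp inside the limit hold 12.

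At the limit itself, the 3 peaks just inside had gaps of 496, 494 and 493 bp. They lay on chromosome 3 from 142057691 to 142057925, on chromosome 12 from 33504889 to 33505203 and on chromosome 8 from 48760454 to 48760695. Their nearest H3ac peaks were 154, 199 and 181 bp wide. The 3 Srf peaks just outside had gaps of 501, 501 and 511 bp and H3ac peaks of 136, 69 and 94 bp. They lay on chromosome 15 from 5194620 to 5194872, on chromosome 1 from 99557687 to 99557793 and on chromosome 19 from 36483986 to 36484149. All 6 nearest H3ac peaks were under 350 bp wide, as were 74.8% of all H3ac peaks.

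Measured between midpoints, the Srf peak and its nearest H3ac peak lay a median of 299 bp apart (291 to 310.5 bp, quartiles 238 and 415 bp). Of the 613 pairs, 314 (51.2%, interval 47.2% to 55.2%) had a midpoint distance from 200 to under 350 bp. In 14 pairs it was under 150 bp, and in 99 (16.2%) it was 500 bp or more. From outer edge to outer edge, a pair spanned a median of 470 bp (quartiles 403 and 618 bp). The midpoint distance is fixed in part by the rule, since it cannot be smaller than the 2 peaks' combined widths divided by 2.

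The H3ac peak lay toward lower coordinates in 295 pairs (48.1%, interval 44.1% to 52.2%) and toward higher coordinates in 318 (51.9%, 47.8% to 55.9%). The rule does not use the side, and both intervals include an even split. On the lower side the median midpoint distance was 293.5 bp (283.5 to 308.5 bp), and on the higher side 308 bp (293.5 to 328 bp). These intervals overlap. The direction of transcription at these sites is not known here, so sides refer to genome order alone.

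**Figure D2:**
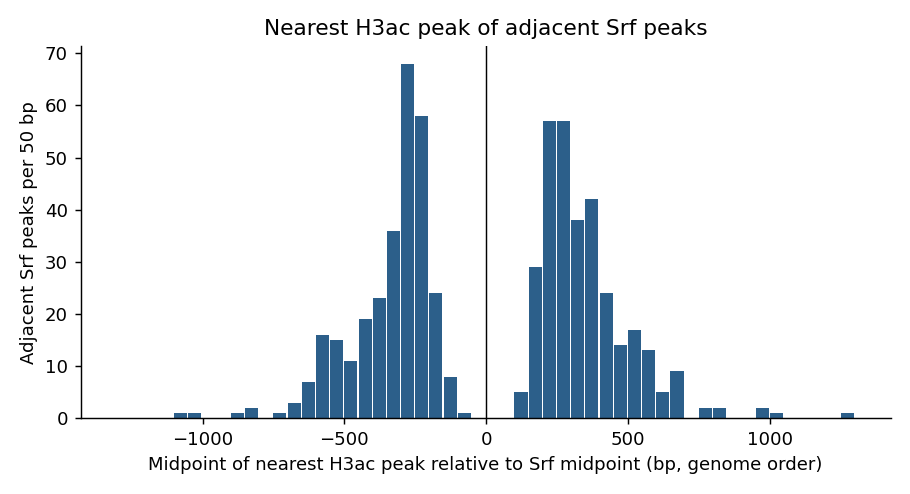
Number of adjacent Srf peaks (vertical axis, per 50 bp) by the midpoint of the nearest H3ac peak relative to the Srf midpoint (horizontal axis, bp in genome order). The tallest bar holds 68 peaks, with H3ac 250 to 300 bp toward lower coordinates, and the bars from 200 to 250 and from 250 to 300 bp toward higher coordinates hold 57 each.

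H3ac lay on a single side in nearly all of these pairs. An H3ac peak within 500 bp on both sides was found for 17 of the 613 (2.77%, interval 1.62% to 4.40%). The count depends on the distance allowed: it was 1.43% of the peaks with gaps up to 250 bp and 4.54% with gaps up to 1000 bp, each with the same limit on both sides. Among all Srf peaks considered, overlapping ones included, 15.2% had a separate H3ac peak within 500 bp on the lower side, 16.2% on the higher side and 0.837% on both. The rule itself puts the adjacent peaks into these shares, and the peaks with H3ac on both sides are the same 17. These shares are thus no outside comparison for the 2.77%. Within 1000 bp, 4.57% of the adjacent peaks (3.06% to 6.53%) had H3ac on the opposite side. Overlapping Srf peaks had another H3ac peak that close on the lower side in 4.57% (2.98% to 6.67%). On the higher side it was 2.74% (1.54% to 4.48%), and these intervals overlap that of the adjacent peaks. The measures differ: the opposite side of an adjacent peak is the one with the larger gap, while overlapping peaks were scored on fixed sides. The H3ac list holds few close pairs in any place: 7.84% of all H3ac peaks had another within 1 kb.

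The opposite side mostly held no H3ac peak within 10 kb. The next H3ac peak there was a median of 34962 bp away (31213 to 40197 bp). It lay within 10 kb for 125 of the 613 (20.4%, interval 17.3% to 23.8%) and within 100 kb for 470 (76.7%). Srf peaks that overlapped H3ac had another H3ac peak within 10 kb on the lower side in 26.5% of cases (22.9% to 30.4%) and on the higher side in 22.1% (18.7% to 25.8%). The interval of the adjacent peaks overlaps both of these. For the adjacent peaks, the opposite side is the one with the larger gap, while overlapping peaks were scored on fixed sides. Within 100 kb, the overlapping peaks had 72.8% on the lower side and 72.8% on the higher. Neighbouring H3ac peaks of the whole list lay a median of 54898 bp apart (52961 to 56990 bp), edge to edge. A long stretch without H3ac is thus not particular to the adjacent peaks.

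**Figure D3:**
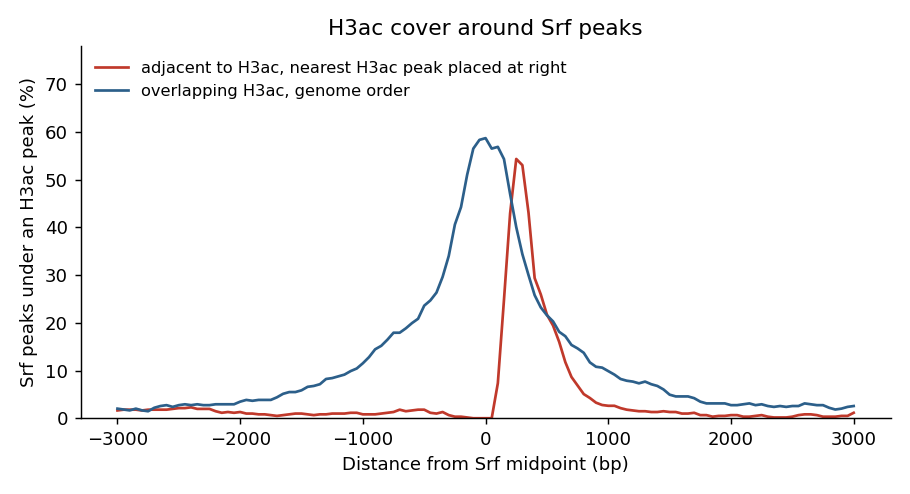
Share of Srf peaks that lie under an H3ac peak (vertical axis, percent) by distance from the Srf midpoint (horizontal axis, bp), for the 613 adjacent peaks turned so that their nearest H3ac peak is at right, and for the 547 overlapping peaks in genome order. Cover of the adjacent peaks reaches 54.3% at 250 bp on the side of the nearest H3ac peak and is 0.326% at 250 bp on the other side. The turning fixes this contrast in part.

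On the side of the nearest H3ac peak, cover rose from 7.34% at 100 bp to 54.3% at 250 bp and fell to 21.7% at 500 bp and 2.61% at 1000 bp. The overlapping Srf peaks had 9.87% at 1000 bp on the higher side and 11.5% on the lower. The rise near the midpoint follows from the rule.

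The 17 peaks with H3ac on both sides sat between 16 different pairs of H3ac peaks on 10 chromosomes. The distance between the facing H3ac edges ran from 273 to 1041 bp, with a median of 602 bp. The Srf peak was closer to the lower H3ac peak in 9 of the 17. Of the 16 pairs, 8 joined a narrow H3ac peak (under 350 bp) to a wider one, 8 joined a pair of narrow peaks, and 0 joined a pair of wider ones. Seen from the H3ac list, 402 gaps between neighbouring H3ac peaks measured from 250 to under 1000 bp, and 16 of them (3.98%, interval 2.29% to 6.38%) held a whole Srf peak. By steps of 250 bp, this share was 7.04% (2.33% to 15.7%), 3.06% and 3.70%. It was 7.32% (3.84% to 12.4%) for gaps from 1000 to 1500 bp and 8.43% (3.46% to 16.6%) from 1500 to 2000 bp. Both of these intervals overlap that of the 402 gaps.

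The tightest of these brackets was on chromosome 4, where an Srf peak from 137860582 to 137860763 filled 181 of the 273 bp between H3ac peaks of 1012 and 113 bp. Its gaps were 38 bp on the lower side and 54 bp on the higher. On chromosome 1, an Srf peak from 182781067 to 182781298 lay in a bracket of 339 bp, 75 bp above an H3ac peak of 757 bp and 33 bp below one of 188 bp. In both places a wider acetylated region stopped just short of the Srf peak and a narrow one followed it.

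The next 3 brackets were looser. On chromosome 9, a peak of 102 bp (103904990 to 103905092) lay in a bracket of 425 bp between H3ac peaks of 499 and 155 bp. On chromosome 8, one from 122892721 to 122892868 lay in 459 bp, between H3ac peaks of 81 and 1428 bp. On chromosome 14, one from 46008511 to 46008671 lay in 498 bp between narrow H3ac peaks of 120 and 94 bp. On chromosome 5, 2 adjacent Srf peaks (149995823 to 149995924 and 149996064 to 149996326) shared 1 bracket of 648 bp.

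The H3ac peaks next to adjacent Srf peaks were mostly narrow. The 613 Srf peaks had 599 different nearest H3ac peaks, since 12 H3ac peaks served 2 Srf peaks each and 1 served 3. Counted per Srf peak, the median width of the nearest H3ac peak was 160 bp (155 to 165 bp), against 185 bp for all H3ac peaks (183 to 188 bp) and 224 bp for the 551 that overlapped an Srf peak (207 to 249 bp). Of the 599, 547 were under 350 bp (91.3%, interval 88.8% to 93.4%), while 74.8% of all H3ac peaks were. Of H3ac peaks that overlapped Srf, 61.0% (56.8% to 65.1%) were that narrow.

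Broad acetylated regions of 1000 bp or more were rare next to adjacent Srf peaks. They made up 10 of the 599 (1.67%, interval 0.803% to 3.05%), 10.9% of all H3ac peaks and 22.3% (18.9% to 26.0%) of those under an Srf peak. Counted from the H3ac list, the share that was nearest to an adjacent Srf peak was 6.53% (5.23% to 8.04%) at widths from 38 to under 100 bp, 7.82% (6.72% to 9.05%) from 100 to under 150 bp and 8.01% (6.96% to 9.16%) from 150 to under 200 bp. It was 5.14% (4.22% to 6.19%) from 200 to under 350 bp, 2.80% (2.03% to 3.77%) from 350 to under 1000 bp and 0.873% (0.420% to 1.60%) from 1000 bp. Overlap with Srf was 5.49% (4.30% to 6.90%) in the narrowest of these classes and lowest, at 3.25% (2.54% to 4.10%), from 100 to under 150 bp. It was 4.17% (3.41% to 5.04%), 4.75% (3.87% to 5.76%) and 6.14% (4.98% to 7.47%) in the next 3 classes and 10.7% (9.01% to 12.7%) from 1000 bp. Because an overlapping Srf peak cannot be an adjacent one, the rule links the shares, and the part of peak length in either was not tested.

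**Figure D4:**
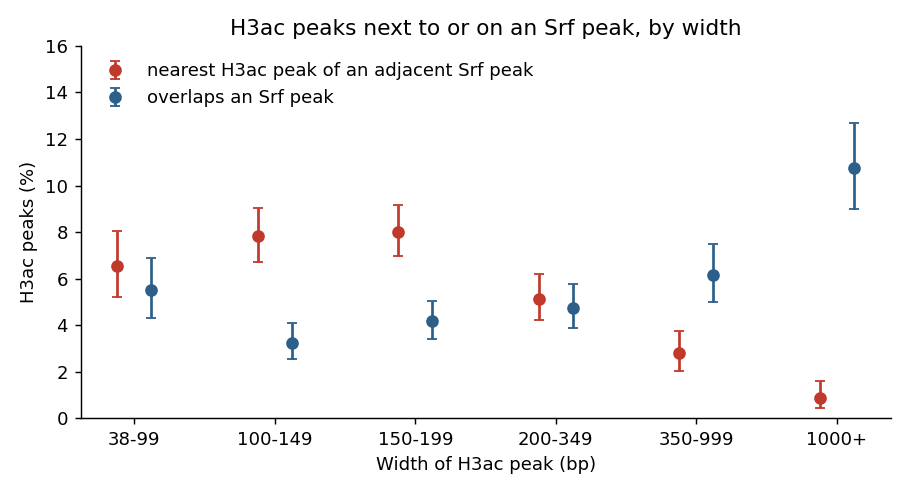
Share of all H3ac peaks (vertical axis, percent, with exact 95% intervals as bars) that were the nearest H3ac peak of an adjacent Srf peak (red) or overlapped an Srf peak (blue), by H3ac width (horizontal axis, bp). The red points run from 6.53% in the narrowest class to 8.01% at 150 to under 200 bp and down to 0.873% at 1000 bp or more, and the blue points run from 5.49% to 3.25% at 100 to under 150 bp and up to 10.7%.

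Very short H3ac peaks were about as frequent as in the whole list. Of the 599, 24 were under 50 bp (4.01%, interval 2.58% to 5.90%), and the share over all H3ac peaks, 3.71%, lies within that interval. Among H3ac peaks under 350 bp, the median was 154 bp for those next to adjacent Srf peaks (150 to 160 bp) and 159 bp for all (157 to 161 bp). These intervals overlap.

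The widest H3ac peaks at this position were looked at singly. The widest, 1649 bp (19855424 to 19857073 on chromosome 7), began 90 bp above an Srf peak from 19855181 to 19855334. On chromosome X, an H3ac peak of 1538 bp (166434582 to 166436120) lay 429 bp above an Srf peak from 166433979 to 166434153 and carried 2 other Srf peaks. One of 1500 bp on chromosome 19 (16207119 to 16208619) began 152 bp above an Srf peak of 101 bp. One of 1233 bp on chromosome X (72918094 to 72919327) ended 388 bp below an Srf peak of 99 bp, the narrowest width in the Srf list considered. The fifth, 1219 bp on chromosome 7 (146652601 to 146653820), ended 121 bp below an Srf peak from 146653941 to 146654126, which had a second H3ac peak 450 bp away on its other side.

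Most of the nearest H3ac peaks stood alone, as did most H3ac peaks of the list. Of the 599, 432 (72.1%, interval 68.3% to 75.7%) had no other H3ac peak within 10 kb, beside 71.1% of all H3ac peaks, which lies within that interval. Another H3ac peak within 1 kb was seen for 22 (3.67%, 2.32% to 5.51%), below the 7.84% of the whole list. The rule lowers this share in part, since an adjacent Srf peak without H3ac overlap takes up some of that 1 kb. An Srf peak lay on 51 of the 599 (8.51%, 6.40% to 11.0%), beside 5.25% of all H3ac peaks, so these acetylated regions had at least 1 Srf peak on them and another at their side.

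As a whole, 385 of the 613 adjacent Srf peaks (62.8%, interval 58.8% to 66.6%) formed isolated pairs. These had 1 Srf peak, 1 H3ac peak and no further peak of either list within 10 kb. No matching share for other Srf peaks is set beside this one, so isolation is not shown to be particular to adjacent peaks. Another Srf peak within 10 kb was found for 19.2% of the adjacent peaks (16.2% to 22.6%), beside 22.3% of all considered. It was 33.5% for overlapping Srf peaks, 35.4% for those up to 10 kb from H3ac and 8.86% for those beyond. An example of an isolated pair is the Srf peak on chromosome 1 from 99666557 to 99666814, whose H3ac peak of 158 bp ended 2 bp below it. The next H3ac peak was 206665 bp away on the other side of the Srf peak and 108034 bp from this H3ac peak on its own side. The next Srf peak was 108764 bp away.

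Other peaks with the smallest gaps showed the same layout. On chromosome 15, an Srf peak from 102126696 to 102126810 ended 1 bp before an H3ac peak of 277 bp. On chromosome 2, one from 151319872 to 151320128 ended 3 bp before an H3ac peak of 41 bp. On chromosome 11, one from 69762431 to 69762557 began 3 bp after an H3ac peak of 103 bp. Their nearest other Srf peaks lay 54282, 246854 and 286114 bp away. All 3 thus lay far from other Srf peaks.

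One of the 5 smallest gaps belonged to no isolated pair. On chromosome 12, an H3ac peak of 126 bp (36883143 to 36883269) was the nearest to 3 adjacent Srf peaks. They ran from 36882975 to 36883142 (gap 1 bp), from 36883443 to 36883554 (gap 174 bp) and from 36883711 to 36883873 (gap 442 bp). A further Srf peak overlapped the H3ac peak itself. The next H3ac peak was 224901 bp away, so 4 Srf peaks stood around 1 narrow acetylated region.

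Close neighbours within the Srf list were about as frequent as among all Srf peaks considered. Of the 613, 81 (13.2%, interval 10.6% to 16.2%) had another Srf peak within 1 kb, beside 13.6% of all considered. The share was 23.4% (19.9% to 27.2%) for overlapping Srf peaks, 12.3% (8.71% to 16.7%) for those up to 10 kb from H3ac and 5.62% (3.90% to 7.80%) for those beyond. The nearest other Srf peak of the 81 overlapped H3ac in 48 cases, was itself an adjacent peak in 25 and lay farther from H3ac in 8. Outside the 1-Mb bins that held 8 or more Srf peaks, the share of adjacent peaks with such a neighbour was 8.16%, against 13.2% with them. Peaks this close are not independent sites, and joining Srf peaks within 500 bp of each other left 549 adjacent ones.

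In median width, the adjacent Srf peaks were close to Srf peaks far from H3ac and lower than those on it, with intervals that overlap in part. The median was 172 bp (165 to 181 bp), against 188 bp (178 to 198 bp) for Srf peaks that overlapped H3ac, 159 bp for those up to 10 kb away and 173 bp (165 to 181 bp) for those beyond. Over all Srf peaks considered it was 174 bp. Widths of 300 bp or more were found in 42 (6.85%, interval 4.98% to 9.15%), beside 9.74% of all Srf peaks considered, which lies above that interval. The share was 19.2% (15.98% to 22.8%) for the overlapping peaks, 5.96% (3.51% to 9.38%) for those up to 10 kb away and 5.79% for those beyond. Both shares away from H3ac lie within the interval of the adjacent peaks, while the overlapping peaks raise the value over all. Of the 198 Srf peaks of 300 bp or more, 53.0% overlapped H3ac and 21.2% (15.7% to 27.6%) were adjacent. Because an overlapping Srf peak cannot be an adjacent one, the rule links these shares, and the part of Srf width was not tested. From 99 to 299 bp the adjacent share stayed between 29.5% and 34.5% in 4 width classes.

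The widest adjacent Srf peak, 654 bp on chromosome 2 from 143740666 to 143741320, lay 74 bp below an H3ac peak of 156 bp. On chromosome 14, a peak of 532 bp (22650085 to 22650617) lay 55 bp below an H3ac peak of 131 bp, with another Srf peak 81 bp away. The others were 458 bp on chromosome 9 (30252817 to 30253275, gap 101 bp), 458 bp on chromosome 11 (101034941 to 101035399, gap 69 bp) and 435 bp on chromosome 8 (126840281 to 126840716, gap 35 bp). Their H3ac peaks measured 198, 524 and 57 bp. In 4 of these 5 places the Srf peak was wider than the acetylated one.

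Within the pairs, the widths and the gap were only weakly related. Across the 613 pairs, Spearman's rho was -0.11 between Srf width and H3ac width, -0.08 between Srf width and gap, and -0.08 between H3ac width and gap. These are descriptions across peaks of the same 2 libraries, not independent replicates. Where the H3ac peak was 350 bp or wider (53 pairs), the median gap was 128 bp (82 to 194 bp), beside 114.5 bp (104 to 129 bp) for the 560 pairs with a narrower one. These intervals overlap. The midpoint distance was longer for the wider ones, 553 against 290.5 bp, as their width adds to it.

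Along the genome, adjacent Srf peaks were found on 20 chromosomes. Their share of the Srf peaks considered ran from 12.8% of 39 on chromosome X (4.30% to 27.4%) to 40.6% of 138 on chromosome 5 (32.3% to 49.3%). The interval lay wholly above 30.2% on chromosomes 5 and 11 (38.4%, 30.4% to 46.8%) and wholly below it on chromosomes 8 (23.6%, 19.0% to 28.8%), 12 (20.9%, 13.9% to 29.4%) and X. These intervals are not adjusted for the 20 chromosomes compared. The median gap of a chromosome ran from 47 bp (12 peaks on chromosome 6) to 136 bp (73 peaks on chromosome 8), apart from chromosome X. There, the 5 adjacent peaks had gaps of 359, 388, 402, 429 and 441 bp, and 3 of them lay between 166424904 and 166434153.

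**Figure D5:**
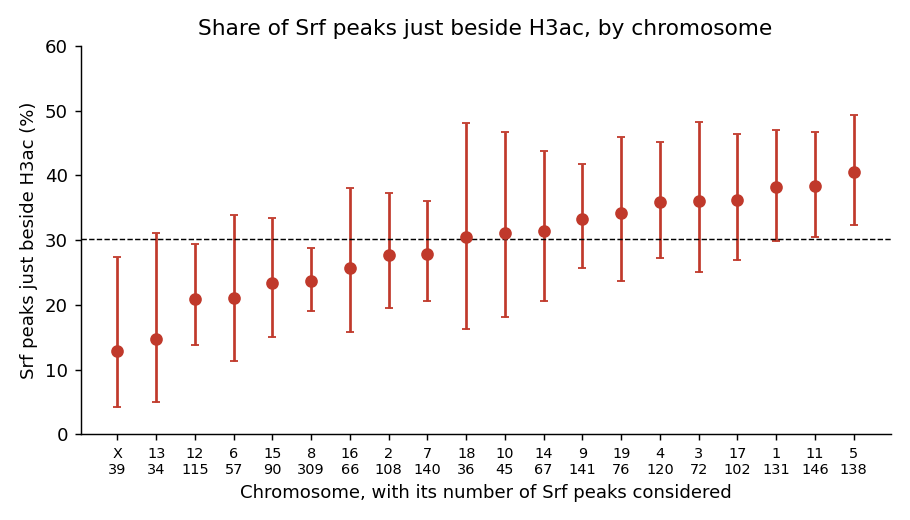
Share of the Srf peaks considered that lay just beside H3ac (vertical axis, percent, with exact 95% intervals as bars) for each chromosome, ordered by share, with the number of Srf peaks considered under its name. The dashed line marks 30.2%, the share over all chromosomes, and the values run from 12.8% on chromosome X to 40.6% on chromosome 5.

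Dense stretches held adjacent Srf peaks in about the same proportion as the rest. In megabase bins with 8 or more Srf peaks, 123 of 442 were adjacent (27.8%, interval 23.7% to 32.3%), and outside them 490 of 1590 (30.8%, 28.6% to 33.2%). Put the other way, 20.1% of the adjacent peaks (17.0% to 23.5%) lay in such bins, beside 21.8% of all Srf peaks considered and 30.9% (27.0% to 35.0%) of those that overlapped H3ac. The 8 Mb of chromosome 8 with most Srf peaks, from 122 to 130 Mb, held 40 adjacent peaks among 175 (22.9%, 16.9% to 29.8%). The share there was lower, with an interval wholly below the 30.2% of all Srf peaks considered. The 40 adjacent peaks had a median gap of 195.5 bp (94 to 241 bp), an interval that includes the 116 bp of all 613.

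Most 100-kb windows with an adjacent peak held a single one: 486 windows held 1, 46 held 2, 9 held 3 and 2 held 4. These are counts of windows, not of peaks, and no count for other Srf peaks is set beside them. On chromosome 18 from 61.8 to 61.9 Mb, the 4 adjacent peaks were among 8 Srf and 9 H3ac peaks, with gaps of 19, 147, 64 and 67 bp in genome order. All 4 had their H3ac peak on the lower side. On chromosome 9 from 44.1 to 44.2 Mb, 4 adjacent peaks were among 9 Srf peaks, 5 of which overlapped H3ac, and 10 H3ac peaks. Their gaps were 167, 43, 6 and 419 bp, with H3ac on the lower side of the peaks with gaps of 167 and 6 bp and on the higher side of the others. On chromosome 8 from 127.5 to 127.6 Mb, all 3 Srf peaks were adjacent, with gaps of 100, 41 and 220 bp, among 4 H3ac peaks. This window was taken over the other windows with 3 because it held the widest adjacent peak among them, 382 bp.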

How the data were processed

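Chromatin immunoprecipitated with antibodies against Srf and H3ac was sequenced on a Genome Analyzer, 1 library each, per the labels' protocols. The authors deposited each called peak's identifier, chromosome, start and end, per the file headers. Per the submitters' processing notes, positions refer to mm9. Not given in the sources used here are the aligner, peak caller, input control, filters, and whether positions count from 0 or 1. Caller settings and fragment length could shift peak ends and so move peaks between overlap and a small gap.

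Peaks were used as called, with width as end minus start and gaps between nearest edges. The classification was tested on simulated lists. Chosen with earlier results of these data known were the adjacent peaks, the comparisons and the rule for naming regions: the 5 smallest gaps, 5 shortest brackets, 5 widest Srf peaks, 5 widest nearest H3ac peaks, 3 fullest windows of 100 kb, and the 3 peaks on each side of 500 bp. The 2-peak bracket on chromosome 5, the 3-peak cluster on chromosome 12 and the gaps on chromosome X were added after their values were seen. No p-value was computed. Alternatives changed the gap limit, touching ends, peak widths, the start limit, dense bins, chromosome 8 and joining of Srf peaks. Versions were scipy 1.17.1, pandas 2.3.3, numpy 2.4.6, matplotlib 3.10.9 and Python 3.11.15.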

Additional observations from a re-analysis of the deposited data

How the results depend on the processing

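Over 10 alternatives and 7 results, 56 values stayed inside the reported interval (for the number of peaks, within 1.5 times) and 14 moved. The share of nearest H3ac peaks under 350 bp and the share without another H3ac peak within 10 kb were added after seeing the data. When H3ac peaks below the median width were dropped, 212 adjacent Srf peaks were left, 0.943% with H3ac on both sides, the nearest H3ac peak had a median of 239.5 bp, 71.7% were under 350 bp and 82.0% had no other within 10 kb, since fewer and wider H3ac peaks were counted. Dropping Srf peaks below the median width gave 287 adjacent ones with a median of 229 bp, by construction, a nearest H3ac median of 152 bp and another Srf peak within 1 kb for 7.32%. H3ac on both sides was 1.43% with gaps up to 250 bp and 4.54% up to 1000 bp. Without dense megabases, 8.16% had another Srf peak within 1 kb and 76.8% of nearest H3ac peaks had no other within 10 kb. Joining Srf peaks lowered the former to 1.82%, by construction. No paired analysis was possible because there was 1 library per antibody and no test. How far sequencing depth limits the lists cannot be read from them.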
